A study of Mus musculus with 4 samples.

Results

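The genes considered here encode the nuclear subunits of the oxidative phosphorylation machinery, and they were measured in spinal cord of mice at postnatal day 8. They were taken by name from the 22096 gene symbols of the deposited tables: symbols that begin with Ndufa, Ndufb, Ndufc, Ndufs or Ndufv and a number, Sdha to Sdhd, Uqcr, Cox4 to Cox8 with a letter from a to c, and Atp5, without assembly factors and pseudogene names. The rule found 82 genes, of which 81 have a transcript of at least 300 bases: 37 of complex I, 4 of complex II, 8 of complex III, 16 of complex IV and 16 of ATP synthase. The name rule does not catch Cox4i1, Ndufab1, Cyc1 and Cycs, which also act in the respiratory chain and are described separately. The remaining gene, Atp5k, which encodes a small membrane subunit of ATP synthase, has a single transcript of 292 bases and was described but not tested.

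The 2 genotypes had 2 libraries each. The conditional knockout mice (cKO) carried floxed alleles of Chd7 only (Chd7f/f) with Cre recombinase under Olig1, and the control mice (Ctrl) carried 1 floxed allele and 1 unfloxed allele (Chd7f/+) with the same Cre. All animals thus had Olig1-cre, and the control is a heterozygote for any recombined allele, not a wild type. Chd7 encodes a chromatin remodeler, and Olig1 marks the oligodendrocyte lineage. Cells keep their alleles if neither they nor their precursors expressed Olig1, and which cells of the cord recombined was not tested. The strain background is labelled mixed. The series asks how CHD7 acts with Sox10 on the timing of myelination. Whole cords were used, so a lower number of cells of a type and less RNA per cell cannot be told apart. The labels do not say whether the libraries of a group came from separate animals, and p-values measure only the spread between these libraries.

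Oxidative phosphorylation is carried out in the inner mitochondrial membrane. Complexes I and II pass electrons from NADH and succinate to ubiquinone, complex III passes them on to cytochrome c, complex IV passes them to oxygen, and ATP synthase uses the proton gradient that complexes I, III and IV build up. Most subunits are encoded in the nucleus, and the rest in the mitochondrial genome, which was not analysed here. In nervous tissue, neurons are known for a high demand for this pathway, and mature oligodendrocytes for a large use of glycolysis and for passing lactate to axons.

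Relative depth was 2.22 and 3.19 in cKO 1 and cKO 2, against 2.07 and 1.0 in Ctrl 1 and Ctrl 2. Chd7 itself was at 2.52 and 3.38 FPKM (fragments per kilobase of transcript, scaled to the mapped total) in the cKO libraries, against 3.52 and 3.12 FPKM in the Ctrl libraries, with overlapping groups (limma adjusted p = 0.657). The labels do not give the floxed part of the gene, and a transcript that lacks it would still be counted, so this value does not check the genotypes. Summed over 8 markers of oligodendrocytes, the level was 6422 and 10044 FPKM in cKO, against 15588 and 17800.2 FPKM in Ctrl. All 8 lay lower in both cKO libraries, and 7 of them fell. Mbp, the largest part of each sum, did not pass (limma adjusted p = 0.234). It was at 4235 and 6284 FPKM in cKO, against 8794 and 10806 FPKM in Ctrl. Summed over 8 neuron markers, of which Slc32a1 rose, the level was 2419 and 2051 FPKM in cKO, against 1701 and 1706 FPKM in Ctrl. Both cKO libraries lay above both controls for 5 of these markers, against 24.3% of all genes. Among the 5 were Nefl and Tubb3, which did not pass (limma adjusted p = 0.187 and 0.0552). Groups overlapped for Snap25, Slc17a6 and Nefm, with log2 fold changes of 0.08, 0.25 and 0.07. The 6 genes of meninges and fibroblasts summed to 31.5 and 34.4 FPKM in cKO, against 255 and 54.7 FPKM in Ctrl, so Ctrl 1 was high in these, and 5 of them fell. The 5 blood genes summed to 8.13 and 14 FPKM in cKO, against 2.75 and 119 FPKM in Ctrl, so Ctrl 2 was high. The 3 that fell, Hba-a2, Hbb-b1 and Alas2, had overlapping groups and Ctrl 2 as the highest library. Hba-a1 rose, at 4.57 and 10.5 FPKM in cKO, against 0.998 and 2.97 FPKM in Ctrl (limma adjusted p = 7.12e-06). Hba-a2 was at 2.04 and 0.583 FPKM in cKO, against 0.988 and 86.6 FPKM in Ctrl. How reads were divided between these 2 genes was not tested, so the rise of Hba-a1 is uncertain. Astrocyte markers summed to 800.2 and 1297 FPKM against 1370.3 and 1493 FPKM, and microglia markers to 51 and 47.5 FPKM against 56.5 and 59.1 FPKM, for cKO against Ctrl. Against these sums, the astrocyte gene Slc1a3 and the microglia gene C1qb rose (limma adjusted p = 0.016 and 0.0296), while 3 microglia genes fell. Endothelial markers summed to 78.4 and 56.5 FPKM in cKO, against 69.8 and 74.8 FPKM in Ctrl.

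Known regulators of these genes bind short motifs close to their start sites. NRF1 and the ETS factor GABP are the classical activators of nuclear respiratory genes, and YY1 is another. RefSeq promoter windows (GRCm38.p6, 300 bases each, most of it before the start) were at hand for 69 of the 82 genes, in 75 windows. Motifs were sought as exact letters on both strands. The NRF1 core is the run of 10 letters in capitals in the Ndufs5 window printed here, with any base in the sixth place. Its reverse complement, with any base in the fifth place, was counted too, as in the first run of the Uqcrc1 window. The YY1 core is the run of 10 letters in capitals in the last window. An NRF1 core was in 24.0% of these windows, against 9.47% of the windows of all genes tested. The YY1 core was in 9.33% against 1.94%, the ETS core CCGGAAG in 21.3% against 16.2%, and the GC box GGGCGG in 38.7% against 62.9%. TATAAA was in 10.7% against 6.93%. The YY1 matches were few, in 7 windows of 6 genes, and 2 of these windows belong to Atp5sl. Counted by gene, the YY1 core was in 8.7% against 2.4%. A match describes the letters of the window and no binding was measured. The windows of 4 genes are printed because they belong to genes described below: that of Ndufs5, the gene that passed the test, those of Cox6a1 and Uqcrc1, with a pair of NRF1 cores each, and that of Ndufs7, with a YY1 core. Capitals mark the NRF1 core in the first 3 and the YY1 core in the last.
Ndufs5 promoter, chr4:123718137-123718436, minus strand: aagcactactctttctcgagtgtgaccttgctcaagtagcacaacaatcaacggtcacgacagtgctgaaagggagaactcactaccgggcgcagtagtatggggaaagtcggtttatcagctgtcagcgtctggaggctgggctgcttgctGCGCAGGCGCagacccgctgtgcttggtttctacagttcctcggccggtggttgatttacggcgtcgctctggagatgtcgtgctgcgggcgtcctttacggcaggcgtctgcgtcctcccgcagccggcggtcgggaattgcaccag
Cox6a1 promoter, chr5:115348909-115349208, minus strand: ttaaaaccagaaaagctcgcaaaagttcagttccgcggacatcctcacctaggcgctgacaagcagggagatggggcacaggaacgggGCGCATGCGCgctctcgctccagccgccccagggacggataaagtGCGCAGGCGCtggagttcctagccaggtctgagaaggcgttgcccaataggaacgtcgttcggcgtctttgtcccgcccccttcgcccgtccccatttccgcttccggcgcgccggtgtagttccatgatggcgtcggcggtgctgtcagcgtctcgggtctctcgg
Uqcrc1 promoter, chr9:108936398-108936697, plus strand: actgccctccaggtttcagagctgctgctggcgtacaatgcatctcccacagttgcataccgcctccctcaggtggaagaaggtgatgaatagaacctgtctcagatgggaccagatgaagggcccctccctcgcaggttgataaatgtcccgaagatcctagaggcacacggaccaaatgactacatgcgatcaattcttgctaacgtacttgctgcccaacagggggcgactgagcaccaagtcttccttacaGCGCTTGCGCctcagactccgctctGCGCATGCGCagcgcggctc
Ndufs7 promoter, chr10:80249199-80249498, plus strand: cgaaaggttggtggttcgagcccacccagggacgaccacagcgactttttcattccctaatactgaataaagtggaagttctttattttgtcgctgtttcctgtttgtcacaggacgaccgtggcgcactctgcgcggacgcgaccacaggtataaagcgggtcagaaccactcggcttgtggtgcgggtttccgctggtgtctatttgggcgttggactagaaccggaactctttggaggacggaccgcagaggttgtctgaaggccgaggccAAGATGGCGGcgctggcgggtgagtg
The 16 tested genes with an NRF1 core had a median log2 fold change of 0.15 in cKO over Ctrl, against 0.13 for the 50 without one. For the YY1 core the medians were 0.06 in 6 genes with it and 0.13 in 60 without it. Yy1, the gene of that factor, fell to 11.8 and 12.2 FPKM in cKO, against 17.4 and 17 FPKM in Ctrl (limma adjusted p = 0.0301). That call was lost in each fit that left out 1 library (limma adjusted p from 0.0625 to 0.297) and under each other scaling (limma adjusted p from 0.0509 to 0.0586).

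Subunit genes were among the abundant transcripts of the cord, and their levels differed by complex. Together the 81 genes made up 5.08% and 4.36% of the FPKM of all genes in cKO 1 and cKO 2, against 4.07% and 4.55% in Ctrl 1 and Ctrl 2. Members of complex I summed to 5851 and 4532 FPKM in cKO, against 4243 and 5203 FPKM in Ctrl. The 4 genes of complex II summed to 484 and 409 FPKM in cKO, against 405 and 399 FPKM in Ctrl. The level of cKO 1 was the highest in both, and cKO 2 lay between the controls for complex I and above them for complex II. Complex III summed to 2149 and 1605 FPKM in cKO, against 1513 and 1868 FPKM in Ctrl. Complex IV summed to 4479.9 and 3553 FPKM in cKO, against 3015 and 3841 FPKM in Ctrl. ATP synthase summed to 5488 and 4281 FPKM in cKO, against 4219 and 4561 FPKM in Ctrl. In these complexes, too, cKO 1 was highest, Ctrl 1 lowest and cKO 2 between the controls.

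**Figure D1:**
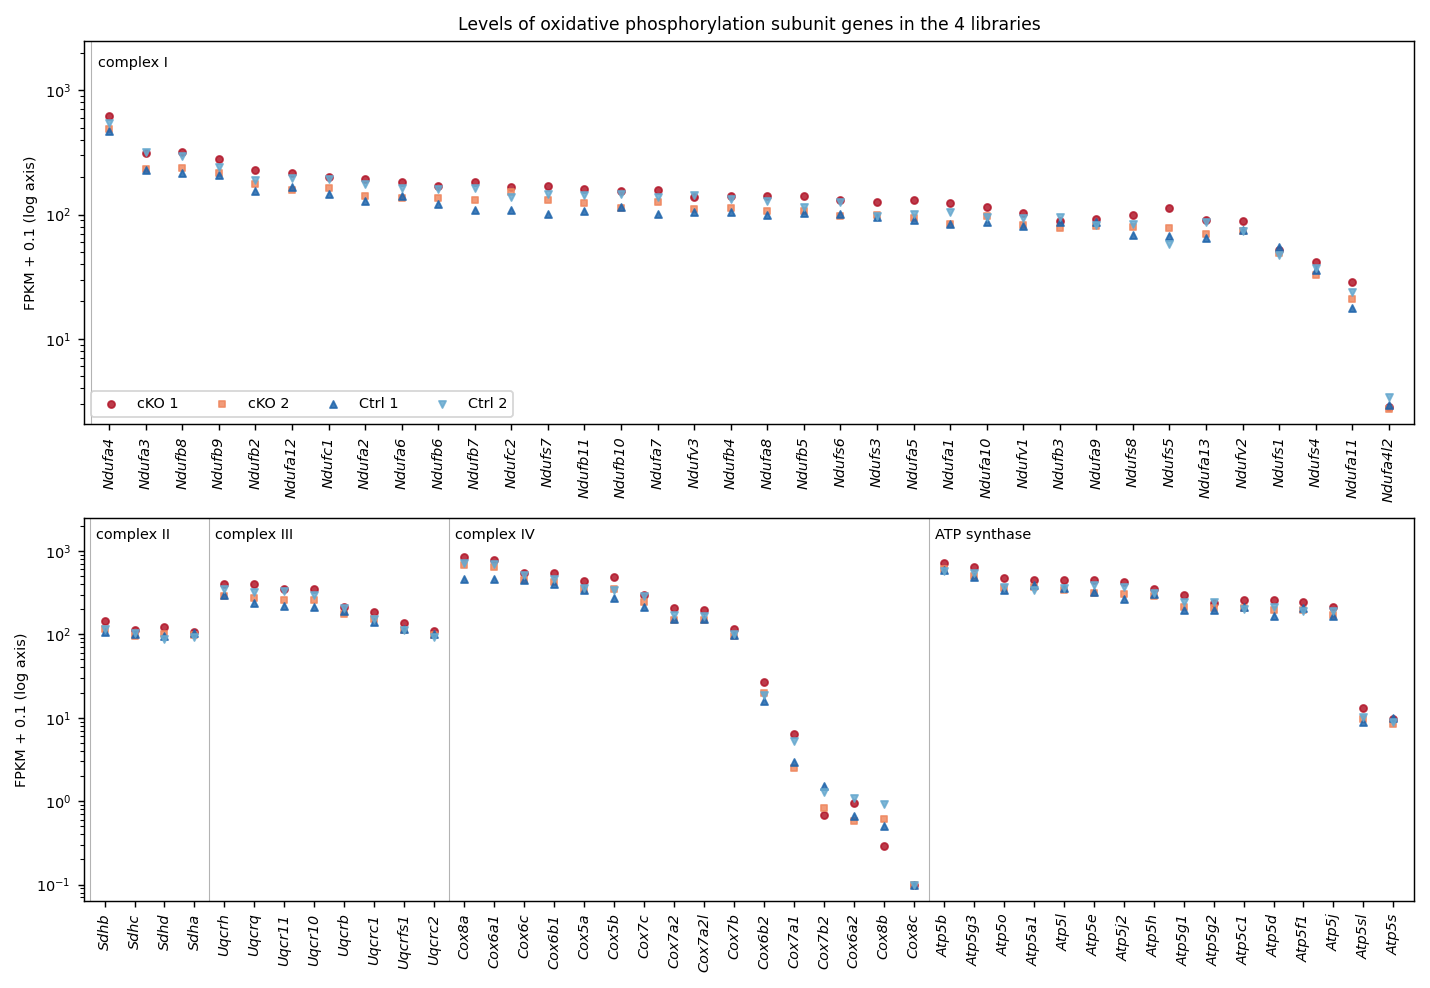
Level of the subunit genes in the 4 libraries, as FPKM + 0.1 on a log axis, ordered by mean level within each complex, with 1 symbol per library. Cox8a and Cox6a1 stand at the top of complex IV, the tissue isoforms Cox7a1, Cox7b2, Cox6a2, Cox8b and Cox8c at its foot, and cKO 1 is the highest library for most genes.

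Across the whole set, 1 of 77 tested members rose in cKO and none fell. Tested were the members with a mean of at least 1 FPKM, on log2(FPKM + 1), a scale that understates the change of low genes, with limma and adjustment over all 12913 genes tested at a threshold of 0.05. Over all genes, 4.13% were called higher and 6.54% called lower in cKO. At an unadjusted limma p under 0.05, 2 members passed, Ndufs5 and Cox6b2, both higher, against 10.4% of all genes higher and 13.8% lower. The log2 fold changes of the members ran from -0.14 to 0.58, with a median of 0.13, against 0.00 over all genes tested. The value lay above 0 for 72 of the 77 members, and for 49.5% of all genes. With quantile scaling it did so for 45 members and 51.9% of all genes, and with a length trend removed for 52 members and 49.9% of all genes. Both cKO libraries lay above both controls for 8 members, against 24.3% of all genes, and below both for 1 member, Ndufa4l2, against 29.3%. The count of 8 depended on scaling: it was 14 with TPM scaling, 15 with median-of-ratios scaling, 11 with quantile scaling and 17 with the length trend removed, where the share of all genes was 23.6%, 28.4%, 28.1% and 29.1%. Every fitted 95% interval of the 77 lay within 1 on the log2 scale either way, and 44 of them lay within 1.5-fold either way. The intervals reached a median of 0.42 to either side of the estimate, and a p that misses the threshold does not show that a gene was at the same level. The median standard error was 0.21 for members and 0.16 over all genes.

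**Figure D2:**
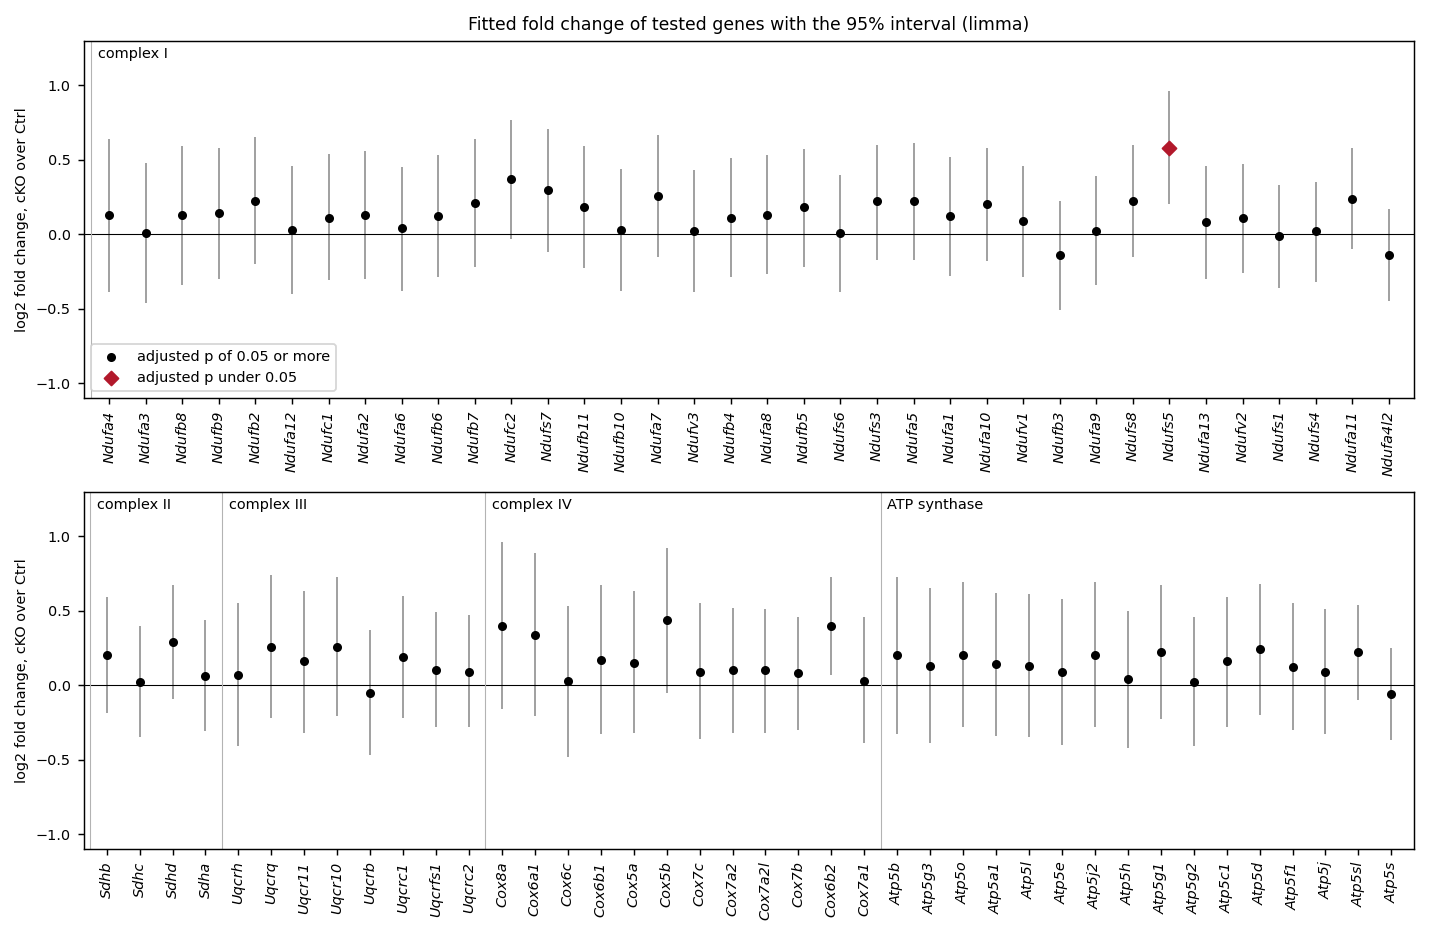
Fitted log2 fold change of cKO over Ctrl for tested members (points) with its 95% interval from limma (bars), by complex. Ndufs5, at 0.58, is the member with an adjusted p under 0.05, and most other points lie a little above 0 with intervals that include it.

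The members differed mostly by library, with cKO 1 high and Ctrl 1 low. All 77 tested members were higher in cKO 1 than in cKO 2, as were 7757 of all 12913 genes tested. The highest of the 4 libraries was cKO 1 for 70 members, against 37.2% of all genes (42 members, against 33% of all genes, with quantile scaling). Ctrl 1 was the lowest library for 47 members, and for 3371 of the 12913 genes. Relative to the mean of the controls, the median member was 0.32 higher in cKO 1 and 0.04 lower in cKO 2 (-0.04) on the log2 scale. The 5 complexes had medians between 0.25 and 0.34 in cKO 1 and between -0.04 and 0.02 in cKO 2. For 48 members cKO 2 lay between the controls, for 21 below both and for 8 above both. Over the 12913 genes tested, the same counts were 3956, 5233 and 3724. Without cKO 1, the median log2 fold changes were -0.045 for complex I, 0.017 for complex II, -0.028 for complex III, -0.018 for complex IV and -0.034 for ATP synthase. Without Ctrl 1 they were -0.014, 0.137, 0.026, 0.049 and 0.059 in the same order. Other runs that left out 1 library raised them, to at most 0.296, 0.248, 0.322, 0.336 and 0.326 in that order. With all libraries each of these medians was 0.13, and with quantile scaling they ran from -0.014 in ATP synthase to 0.06 in complex II. Over all 77 members, the differences within groups were larger than the median genotype difference of 0.13. The median member was 0.34 higher in cKO 1 than in cKO 2, and 0.21 higher in Ctrl 2 than in Ctrl 1. With quantile scaling these differences were 0.15 and 0.12. This did not hold in each complex: the median of Ctrl 2 over Ctrl 1 was -0.04 in complex II and 0.13 in ATP synthase. It was 0 among the 24 members of 1000 bases or more, where the median genotype difference was 0.11.

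**Figure D3:**
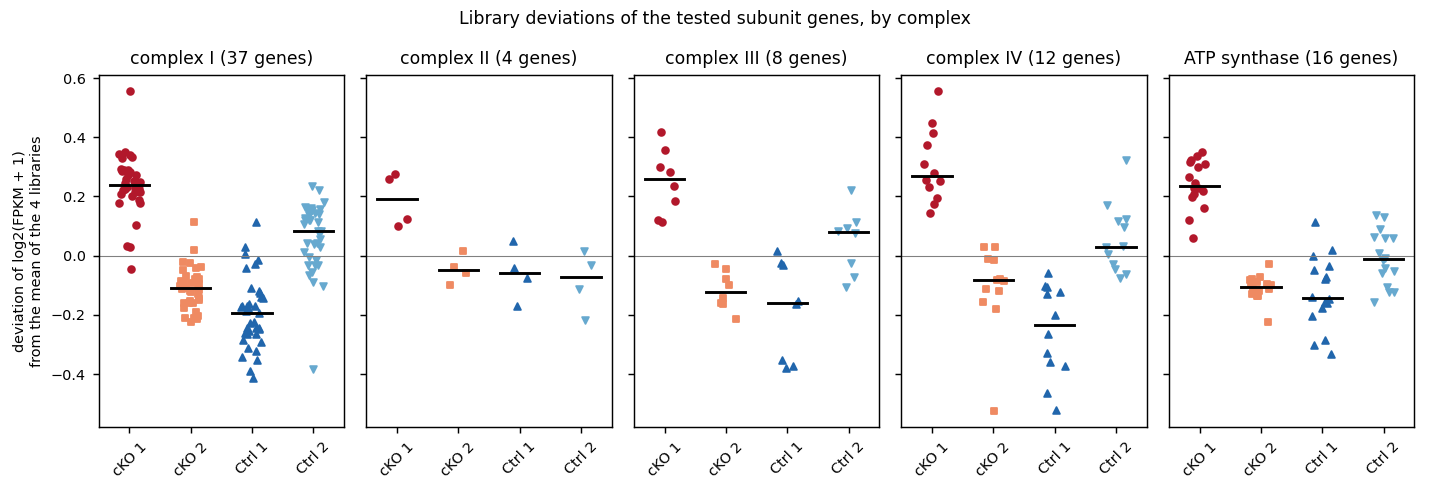
Deviation of log2(FPKM + 1) in each library from the mean of the 4 libraries, for the tested members of each complex (points, with a black bar at the median). The medians of cKO 1 run from 0.19 to 0.27 over the 5 complexes, and those of cKO 2 from -0.12 to -0.05.

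Transcript length moved with these differences between libraries. Most members are short, with a median of 679 bases against 2826 for all genes tested. Among all tested genes of 300 to 499 bases, the median was 0.36 higher in cKO 1 than in cKO 2 and 0.31 higher in Ctrl 2 than in Ctrl 1. Among those of 4000 bases or more it was -0.06 and -0.14. The 15 members of 300 to 499 bases had medians of 0.43 and 0.44 in the same 2 contrasts, and the 8 members of 1500 to 2499 bases had 0.30 and 0.06. Across the 77 members, the difference between Ctrl 2 and Ctrl 1 correlated with log2 length at a Pearson r of -0.63 and a Spearman rho of -0.63, and that between cKO 1 and cKO 2 at -0.48 and -0.46. These are descriptions across genes of the same libraries, which are not independent replicates. The genotype difference itself followed length little among members, at -0.08 and -0.03. Among the 973 tested genes under 1000 bases the median genotype difference was 0.10, and cKO 1 was the highest library for 60.0% of them, against 90.6% of the 53 members of that length. After a length trend was removed from each library, the median over members was 0.045, the differences between cKO 1 and cKO 2 and between Ctrl 2 and Ctrl 1 were 0.12 and -0.01, and cKO 1 was the highest library for 47 of 77, against 32.3% of all genes.

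**Figure D4:**
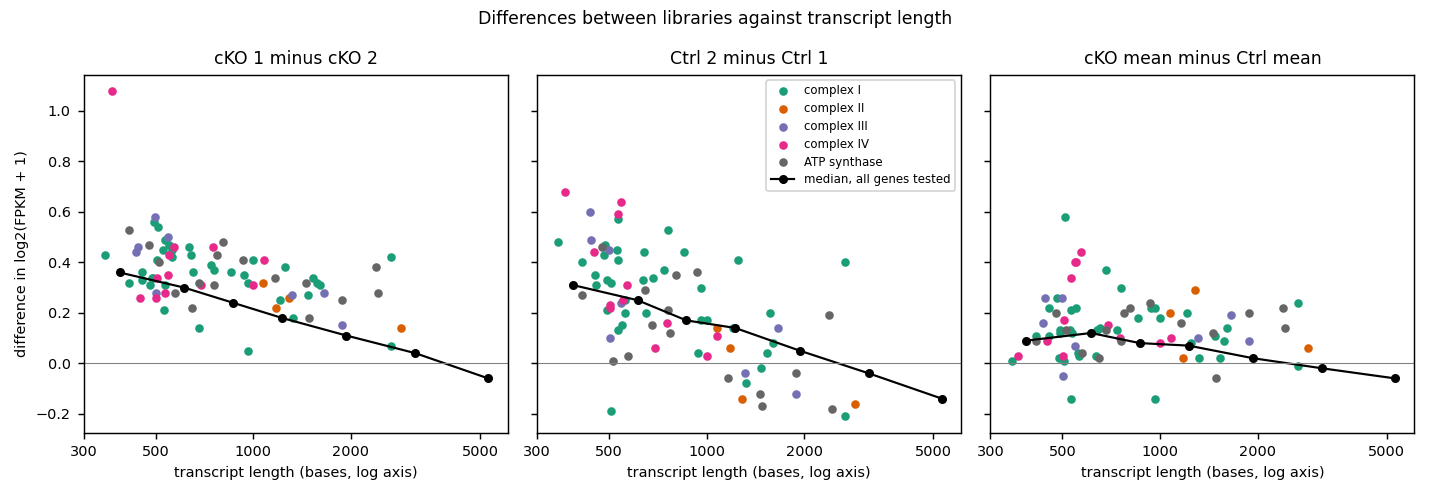
Differences in log2(FPKM + 1) against transcript length on a log axis for the 77 tested members (coloured by complex) and the median of all tested genes in bins of length (black line). In the panels of cKO 1 minus cKO 2 and of Ctrl 2 minus Ctrl 1 the line falls with length, and in the panel of the genotype difference it lies between 0.12 and -0.06.

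Complex I is the largest of the complexes, with core subunits that hold the redox centres and many accessory subunits around them. The 37 members named for complex I had log2 fold changes from -0.14 to 0.58. Ndufs7, the core subunit next to the ubiquinone site, was at 169 and 131 FPKM in cKO, against 100.3 and 146 FPKM in Ctrl. Ndufs1, the largest core subunit, was at 51.8 and 49.3 FPKM in cKO, against 55 and 47.3 FPKM in Ctrl. Groups overlapped for both genes, and neither passed (limma adjusted p = 0.405 and 0.975). Ndufc2, an accessory subunit of the membrane arm, was at 166 and 150.3 FPKM in cKO, against 108 and 137 FPKM in Ctrl. Both cKO libraries lay above both controls for Ndufc2, and its log2 fold change of 0.37 (interval -0.03 to 0.77) did not pass (limma adjusted p = 0.254). Ndufa11, another accessory subunit of the membrane arm, was at 28.4 and 21 FPKM in cKO, against 17.7 and 23.7 FPKM in Ctrl (limma adjusted p = 0.403). Ndufs3, Ndufa10 and Ndufs5 were the other members of complex I with both cKO libraries above both controls.

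Ndufa4 had the highest level of the genes named for complex I and is now known as a subunit of complex IV. It was at 618 and 489 FPKM in cKO, against 467 and 542 FPKM in Ctrl, with overlapping groups (limma adjusted p = 0.812). Ndufa3, a small accessory subunit and the next in level, was at 312 and 231 FPKM in cKO, against 226 and 316 FPKM in Ctrl. The groups overlapped in full, and the log2 fold change was 0.01 (limma adjusted p = 0.989). Ndufa4l2, the paralog of Ndufa4 known to be induced by low oxygen, was at 2.73 and 2.61 FPKM in cKO, against 2.81 and 3.29 FPKM in Ctrl (limma adjusted p = 0.634). The locus of Ndufa4l2 overlaps that of Shmt2, at 14.5 and 13.4 FPKM in cKO and 12.9 and 16.8 FPKM in Ctrl, and the libraries are not stated to keep strand. In all, 10 members overlap another listed symbol in this way and are uncertain to that extent. Ndufv3, an accessory subunit with a short and a long form, had 90.5% and 88.5% of its FPKM on the transcript of 487 bases in cKO, against 88.2% and 88.9% in Ctrl, so the shares overlapped.

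Ndufs5, an accessory subunit of complex I (chromosome 4, 123389953 to 123395429 on mm9, 1 transcript of 509 bases), was the member that rose. It was at 113 and 77.4 FPKM in cKO, against 66.7 and 58.3 FPKM in Ctrl, with both cKO libraries above both controls. The log2 fold change was 0.58 ± 0.19 (SE, n = 2 libraries each), with a 95% interval of 0.20 to 0.96 (limma adjusted p = 0.0412). A processed pseudogene copy, BC002163, is listed in the same tables on chromosome 16 (42955693 to 42956192 on mm9). That row was at 0.425 and 0.578 FPKM in cKO, against 37.3 and 52.5 FPKM in Ctrl, a log2 fold change of -4.92 ± 0.16 (SE, limma adjusted p = 1.55e-24), the largest fall of all genes tested. A second row of BC002163 is placed at the Ndufs5 locus, with a status other than OK, and read 2.26 and 16.3 FPKM in cKO, against 0.000261 and 9.03 FPKM in Ctrl. The 3 rows together summed to 115 and 94.3 FPKM in cKO, against 104 and 119.9 FPKM in Ctrl. The summed values overlapped between the groups, with a log2 fold change of -0.10 (interval -0.48 to 0.29, limma adjusted p = 0.806). The rise of Ndufs5 is therefore given as uncertain, and how reads were divided between the gene and the copy was not tested. Without cKO 2 its log2 fold change was 0.84 (limma adjusted p = 0.00289), without cKO 1 it was 0.31 (limma adjusted p = 0.713), without Ctrl 1 it was 0.67 (limma adjusted p = 0.0867) and without Ctrl 2 it was 0.48 (limma adjusted p = 0.252).

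**Figure D5:**
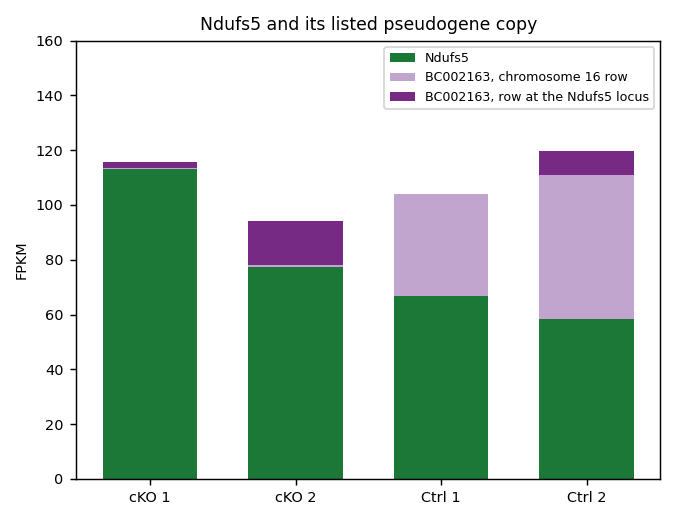
FPKM of Ndufs5 and of both BC002163 rows in each library, stacked. The chromosome 16 row is at 0.425 and 0.578 FPKM in cKO and at 37.3 and 52.5 FPKM in Ctrl, and the stacks of the 4 libraries lie between 94.3 and 119.9 FPKM.

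The transcripts of gene and copy are nearly the same. In the GENCODE M21 transcript sequences, the 319 annotated bases of BC002163 differ from Ndufs5 at 2 positions, T173C and A197G, counted from 1 at the 5′ end of the Ndufs5 transcript, with the Ndufs5 base first. The stretches around both are printed because, within the compared bases, a read that covers neither position is the same in gene and copy, with the differing bases in capitals.
Ndufs5 around T173C: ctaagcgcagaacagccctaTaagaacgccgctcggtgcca
BC002163 around T173C: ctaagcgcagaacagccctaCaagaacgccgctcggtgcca
Ndufs5 around A197G: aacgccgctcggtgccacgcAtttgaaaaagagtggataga
BC002163 around A197G: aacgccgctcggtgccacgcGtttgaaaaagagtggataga
Copies are common in this gene family. By the same comparison, 20 of the 82 genes have at least 1 annotated pseudogene transcript of at least 95% identity over at least 200 bases and 80% of the copy, 35 copies in all. Of these copies 2 are listed in the tables, BC002163 and Gm10012, a copy of Cox7c at 2.13 and 1.67 FPKM in cKO, against 1.41 and 2.77 FPKM in Ctrl. How reads of the other copies were counted was not tested. Atp5l had 8 such copies, Atp5h 4 and Uqcrb 3.

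Complex II, succinate dehydrogenase, also acts in the tricarboxylic acid cycle and is encoded by the nucleus alone. Its 4 subunit genes had means from 99.9 to 120.1 FPKM over the 4 libraries. Sdha, the flavoprotein with the succinate site, was at 107 and 97.1 FPKM in cKO, against 103 and 92.2 FPKM in Ctrl. Sdhb, the iron-sulfur subunit, was at 143 and 115 FPKM in cKO, against 106 and 117 FPKM in Ctrl. Groups overlapped for both (limma adjusted p = 0.879 and 0.574). The membrane anchor Sdhc was at 112 and 95.4 FPKM in cKO, against 99.5 and 103 FPKM in Ctrl, again overlapping (limma adjusted p = 0.956). The other anchor, Sdhd, was at 123 and 102 FPKM in cKO, against 95.9 and 86.8 FPKM in Ctrl. Both cKO libraries lay above both controls for Sdhd, and the log2 fold change of 0.29 (interval -0.09 to 0.67) did not pass (limma adjusted p = 0.357).

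Complex III, the cytochrome bc1 complex, had no member whose groups were apart. Uqcrc1, one of the large core proteins, was at 184 and 152 FPKM in cKO, against 139 and 154 FPKM in Ctrl (limma adjusted p = 0.616). Uqcrfs1, the Rieske iron-sulfur protein, was at 136 and 113 FPKM in cKO, against 116 and 113 FPKM in Ctrl (limma adjusted p = 0.792). For these longer transcripts, cKO 1 was the library that stood above the others. The small subunits differed more between libraries of a group. Uqcrq was at 403 and 269 FPKM in cKO, against 235 and 321 FPKM in Ctrl (limma adjusted p = 0.55). Uqcr10 was at 351 and 255 FPKM in cKO, against 211 and 296 FPKM in Ctrl (limma adjusted p = 0.542). In both of these small subunits cKO 2 lay between the controls. Uqcr11 was at 350.4 and 257 FPKM in cKO, against 219 and 332 FPKM in Ctrl (limma adjusted p = 0.745). Uqcrh, the hinge protein and the highest of the complex, was at 404 and 286 FPKM in cKO, against 299 and 352 FPKM in Ctrl (limma adjusted p = 0.896).

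Complex IV is cytochrome c oxidase, and its Cox8a and Cox6a1 had the highest means over the 4 libraries among tested members. Cox8a, a small subunit of the membrane part, was at 854 and 672 FPKM in cKO, against 459 and 715 FPKM in Ctrl (log2 fold change 0.40, interval -0.16 to 0.96, limma adjusted p = 0.397). Cox6a1 was at 785 and 646 FPKM in cKO, against 459 and 690.3 FPKM in Ctrl (limma adjusted p = 0.482). Ctrl 1 was low for both, and cKO 2 lay below Ctrl 2. Cox5b, which binds zinc on the matrix side, was at 486 and 353 FPKM in cKO, against 275 and 341 FPKM in Ctrl. Both cKO libraries lay above both controls for Cox5b, with cKO 2 close to Ctrl 2, and its log2 fold change of 0.44 (interval -0.05 to 0.92) did not pass (limma adjusted p = 0.266).

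Several subunits of complex IV have paralogs that are known from muscle or testis. The muscle forms Cox6a2 and Cox8b were below 1 FPKM in all 4 libraries, and Cox7a1 was at 6.27 and 2.43 FPKM in cKO, against 2.85 and 5.18 FPKM in Ctrl (limma adjusted p = 0.947). The counterparts Cox6a1, Cox8a and Cox7a2 ran from 148 to 854 FPKM over the 4 libraries. Among 6 skeletal muscle markers Ckm was at 0.16 and 0.196 FPKM in cKO, against 0 and 0.116 FPKM in Ctrl, and the sum of the 6 ran from 1.7 to 2.96 FPKM. Cardiac muscle markers, 4 in all, summed to between 1.72 and 2.92 FPKM. Cox8c, known from testis, was listed at 0 in each library, and Cox7b2 was at 0.585 and 0.722 FPKM in cKO, against 1.43 and 1.18 FPKM in Ctrl. Cox6a2, Cox8b, Cox8c and Cox7b2 stayed under the filter and were not tested.

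Cox6b2, known as the testis paralog of Cox6b1, was present in the cord at 26.9 and 19.7 FPKM in cKO, against 15.6 and 18.8 FPKM in Ctrl. Both cKO libraries lay above both controls, with a log2 fold change of 0.40 (interval 0.07 to 0.73) that missed the threshold (limma adjusted p = 0.113). Without cKO 2 the value was 0.62 and passed (limma adjusted p = 0.0328), and without cKO 1 it was 0.19 (limma adjusted p = 0.897). Without Ctrl 1 it was 0.28 and without Ctrl 2 it was 0.53 (limma adjusted p = 0.485 and 0.0599). With rows of at least 500 bases it was 0.26, and with single transcripts 0.69 (limma adjusted p = 0.33 and 0.235). The longer of its transcripts carried 69.2% and 68.5% of its FPKM in cKO, against 79.1% and 73.5% in Ctrl. Among the 7 members with more than 1 transcript, the groups did not overlap in that share, nor in the main share of Cox7a2l. The latter was 99.3% and 99.6% in cKO, against 99.7% and 100% in Ctrl, and no share was tested. The other transcript of Cox7a2l was at 1.33 and 0.581 FPKM in cKO, against 0.423 and 7.33e-05 FPKM in Ctrl. For the levels of all genes tested, both cKO libraries lay above both controls in 24.3% and below both in 29.3%. No such background is given for shares. Cox6b1 was at 543 and 429 FPKM in cKO, against 396 and 465 FPKM in Ctrl (limma adjusted p = 0.732). The groups also overlapped for Cox7a2, Cox7a2l and Cox7b. Cox7a2 was at 204 and 148 FPKM in cKO, against 153 and 171 FPKM in Ctrl, and Cox7a2l, known for joining complexes III and IV, at 195 and 147 FPKM against 153 and 165 FPKM. Cox7b was at 117 and 94.5 FPKM in cKO, against 98.2 and 100.3 FPKM in Ctrl. The limma adjusted p was 0.814 for Cox7a2, 0.824 for Cox7a2l and 0.829 for Cox7b.

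ATP synthase is built of a catalytic head, a stalk and a membrane ring that turns as protons pass. Atp5b, the catalytic beta subunit, was the highest of its tested genes at 725 and 607 FPKM in cKO, against 586 and 568 FPKM in Ctrl. It was the 1 member of this complex with both cKO libraries above both controls, and its log2 fold change of 0.20 (interval -0.33 to 0.73) did not pass (limma adjusted p = 0.693). Atp5a1, the alpha subunit of the head, was at 444 and 365 FPKM in cKO, against 389 and 344 FPKM in Ctrl (limma adjusted p = 0.781). Atp5d, the delta subunit of the central stalk, was at 258 and 194 FPKM in cKO, against 167 and 215 FPKM in Ctrl (limma adjusted p = 0.539). In Atp5d the lowest library was Ctrl 1. Atp5j2, a small membrane subunit, was at 422 and 303 FPKM in cKO, against 265 and 365 FPKM in Ctrl (limma adjusted p = 0.665). Atp5k, which was not tested, was listed at 728 and 554 FPKM in cKO, against 638 and 732 FPKM in Ctrl.

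The ring is made of subunit c, for which the genes Atp5g1, Atp5g2 and Atp5g3 encode precursors of the same mature protein. Their summed level was 1171 and 925 FPKM in cKO, against 880.5 and 1030 FPKM in Ctrl. Atp5g3 supplied 54.1% and 54.7% of it in cKO, against 55.8% and 52.8% in Ctrl. Atp5g3 was at 634 and 506 FPKM in cKO, against 492 and 544 FPKM in Ctrl (limma adjusted p = 0.806). Atp5g1 was at 299 and 215 FPKM in cKO, against 193 and 245 FPKM in Ctrl (limma adjusted p = 0.596). Atp5g2 was at 238 and 205 FPKM in cKO, against 196 and 241 FPKM in Ctrl (limma adjusted p = 0.968). The groups overlapped for each of the 3 genes and for their sum. Atp5s and Atp5sl match the name rule but are named Dmac2l and Dmac2 in RefSeq, the second for its part in complex I assembly. Atp5sl was at 12.8 and 9.64 FPKM in cKO, against 8.76 and 10.1 FPKM in Ctrl, and Atp5s at 9.47 and 8.24 FPKM against 9.87 and 8.69 FPKM, with neither passing (limma adjusted p = 0.42 and 0.849).

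Other genes of energy metabolism were read from lists beside the members. Over all genes tested, 4.13% were called higher and 6.54% called lower in cKO, so single calls in a list are no result about that list. Of 8 subunits and partners outside the name rule none passed, with a median of 0.11, and Cox4i1, the large regulatory subunit of complex IV, was at 769.8 and 561 FPKM in cKO, against 573 and 631 FPKM in Ctrl (limma adjusted p = 0.816). Atpif1, the inhibitor of ATP synthase, was at 365 and 257 FPKM in cKO, against 224 and 265 FPKM in Ctrl, and Cyc1, cytochrome c1, at 251 and 194 FPKM against 168 and 191 FPKM, with neither passing (limma adjusted p = 0.404 and 0.413). Of 32 assembly factors 1 rose, with a median of 0.06. That gene was Lyrm7, which helps to insert the Rieske protein into complex III, at 4.34 and 3.2 FPKM in cKO, against 1.15 and 1.1 FPKM in Ctrl (log2 fold change 1.16 ± 0.16, limma adjusted p = 1.88e-06). Of 76 mitochondrial ribosomal protein genes Mrps10 rose (23.7 and 20.4 FPKM in cKO, against 13.6 and 14.9 FPKM in Ctrl, limma adjusted p = 0.00849), with a median of 0.11. None of 20 tested import channel subunits passed, with a median of 0.06, and Timm8a1 and Tomm6 had the smallest p (limma adjusted p = 0.184 and 0.207).

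None of 19 genes of the tricarboxylic acid cycle and pyruvate dehydrogenase passed, with a median of 0.10. Cs, citrate synthase, was at 128 and 118 FPKM in cKO, against 104 and 104 FPKM in Ctrl, with both cKO libraries higher (limma adjusted p = 0.474). Of 19 tested genes of glycolysis and lactate handling, Slc16a1 fell to 25.3 and 25.4 FPKM in cKO, against 45.1 and 42.5 FPKM in Ctrl (log2 fold change -0.77 ± 0.16, limma adjusted p = 0.00104), with a median of 0.18 over the list. Slc16a1 encodes a lactate transporter known from oligodendrocytes. The oligodendrocyte markers given above were also lower in cKO, at a sum of 6422 FPKM in cKO 1 and 10044 FPKM in cKO 2. Whether the fall of Slc16a1 goes with these cells was not tested. Gatm, which makes the precursor of creatine, fell to 43.1 and 58.2 FPKM in cKO, against 82.6 and 76.9 FPKM in Ctrl (limma adjusted p = 0.012), the 1 of 9 carrier and creatine genes that passed. Sqrdl, which passes electrons from sulfide to ubiquinone, fell to 1.73 and 1.57 FPKM in cKO, against 3.14 and 3.43 FPKM in Ctrl (limma adjusted p = 0.00189), the 1 of 9 tested genes of uncoupling and other electron entry that passed. The medians of these lists were 0.02 for the carrier and creatine genes and -0.07 for the uncoupling genes. Single falls in such short lists stand beside 6.54% of all genes tested that were called lower. Without cKO 1 neither Gatm nor Mrps10 passed (limma adjusted p = 0.407 and 0.247), nor did they without Ctrl 1 (limma adjusted p = 0.0945 and 0.0614). Among 19 regulators of mitochondrial genes Yy1 fell, as given above, and the median was -0.02.

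Cytosolic ribosomal protein genes, which are short and abundant like the members and lie outside mitochondria, gave nearly the same picture. None of 73 passed. Their median genotype difference was 0.13, and cKO 1 was the highest library for 67 of them. Their median was 0.36 higher in cKO 1 than in cKO 2 and 0.21 higher in Ctrl 2 than in Ctrl 1, against 0.34 and 0.21 for the 77 subunit genes. The part that length, neuron content or other properties of the libraries had in these values was not tested.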

How the data were processed

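Total RNA of spinal cord (Trizol, TruSeq RNA kit, per the labels' protocols) was available as 4 libraries. The authors deposited FPKM per RefSeq transcript in the layout of Cufflinks, per the file headers, together with coverage, the average signal over a transcript's bases. The submitters' processing notes name CASAVA, TopHat, Cufflinks, Cuffdiff and mm9, without versions. Library totals were not used here. Relative depth was taken from coverage over FPKM. Of 28107 rows, 315 with a status other than OK were left out. FPKM was summed per symbol over rows of at least 300 bases. Genes with a mean of at least 1 FPKM were tested as log2(FPKM + 1) with limma 3.58.1 in R 4.3.3 (genotype, mean-variance trend, Benjamini-Hochberg over 12913 genes), with 36.3 prior and 2 residual degrees of freedom, so the spread is mostly pooled over genes. An exact permutation test of 2 against 2 libraries cannot go below p = 0.333. Pseudogene copies were sought with BLAST+ 2.17.0 among GENCODE M21 transcripts.

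The genes named were Chd7, members that passed, the 4 smallest p and the 2 highest levels in each complex, paralog sets, and in each other list the genes that passed or else those of smallest p. Others were named after their values were seen, and some genes that the rule selects are not reported here, nor drawn by name. Alternatives were other scalings, filters, row choices, limma settings, a replicate block and leaving out each library. Members, lists and tests were chosen with earlier results of these data known. The length correction, the crossed pairing and the sum with BC002163 were chosen after seeing the data.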

Additional observations from a re-analysis of the deposited data

How the results depend on the processing

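Depth is known only relative to the shallowest library, Ctrl 2, and 2 libraries per genotype limit what can be called. No member fell under any alternative run. The count of members that rose, 1 with all libraries, was 0 with TPM, median-of-ratios or quantile scaling, with no filter on low values, with all rows summed, with single transcripts, with the length trend removed and with Ndufs5 and BC002163 summed, where Ndufs5 turned to -0.10. It ran from 0 to 2 when 1 library was left out, and it was 1 with the other filter, pseudocount, row length and limma settings. Over all genes, 533 rose and 845 fell with all libraries. These counts were 199 and 446 with TPM scaling, 310 and 426 with quantile scaling, 22 and 33 with no filter, 23 and 30 with all rows summed, and 5 and 13 with single transcripts. With median-of-ratios scaling 552 fell. Leaving out 1 library gave 111 to 557 higher and 274 to 919 lower genes, with the lone sample assumed to vary like the other group. The ATP synthase median then ran from -0.034 to 0.326. The median of complex I was -0.014 without Ctrl 1. Sqrdl, lower in gene sums, was at 0.32 in single transcripts (limma adjusted p = 0.829). The calls of Lyrm7, Mrps10, Slc16a1, Gatm, Sqrdl and Yy1 were all lost with no filter, with all rows summed and with single transcripts. The cause of these differences was not tested.

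Whether libraries of the same number were handled together is not known. Their deviations from the group means correlated at -0.24 across 12913 genes and at -0.5 across the 77 members. These values cannot decide it, because both differences within groups moved with transcript length. With the replicate block 351 genes and 0 members rose. With the crossed pairing, chosen after seeing the data, 943 genes and 3 members rose.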
